A study of Mus musculus with 78 samples.

Results

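The kinesin superfamily comprises motor proteins that move along microtubules or disassemble them. Its members were taken as all genes of the arrays whose annotated symbol begins with Kif or Kifc followed by a number. Each gene is represented by its brightest probe set, judged on the mean of all 78 arrays. This gave 41 of 18194 genes, with 104 probe sets in all. Of these, 12 are grouped here as mitotic kinesins, 14 as neuronal cargo transport kinesins, 5 as cilium and Hedgehog kinesins and 9 as microtubule-end and other kinesins, while Kifc5b is in no group. Expression was measured as log2 intensity in mouse brain at 3 ages, E14 (embryonic), P0 (newborn) and P14 (postnatal), with 3 arrays in each of 26 groups. The mutant groups were Lis1 ko/cko and Lis1 ko/+ (Lis1, gene symbol Pafah1b1), Ndel1 ko/cko and Ndel1 ko/+ at each age. Dcx ko/Y was sampled at E14 and P0, and 14-3-3 epsilon ko/ko (gene Ywhae) at E14. At P0 there were also Ndel1 ko/+ and 14-3-3 epsilon ko/ko of inbred background (nudel129s6 and epsilon129s6 in the labels), and at P14 an Ndel1 ko/+ group labelled as mixed background. The labels of Lis1 ko/cko and Lis1 ko/+ carry the same word (Mix) at P0, but not at E14 or P14. The wild types were of mixed background A and mixed background B at each age, and of inbred background (WT129s6) at P0 and P14. The labels explain neither the cko allele nor any Cre line, and they give no sex except through Dcx ko/Y. They call the arrays biological replicates without saying whether animals were pooled or shared a litter, so p-values measure the spread between these arrays. The tissue label was checked on 8 neuron markers, all of which had medians above the test level at every age. The study set these mutants side by side to ask how far their expression changes are shared.

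Most kinesins walk towards microtubule plus ends, which lie distally in axons, and so carry cargo outward. Cytoplasmic dynein, the motor regulated by LIS1 and NDEL1, carries cargo in the other direction. A separate set of kinesins builds the spindle, moves chromosomes and completes cytokinesis, and is made mainly in dividing cells such as the progenitors of the embryonic brain. In whole tissue, fewer cells of a type and less RNA per cell cannot be told apart.

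A gene was tested where at least 1 group mean reached 5.253 log2 units, the median of all values. By this measure 32 members were tested at E14, 31 at P0, 25 at P14, 32 across the wild types and 34 across all arrays. All 14 transport kinesins were tested at every age. Of the mitotic kinesins 10 were tested at E14, 9 at P0 and 3 at P14, so 9 of the 12 reached that level in no group at P14. Kif14, which acts at the midzone of dividing cells, and Kif15, another plus-end motor of the spindle, stayed under it at each age. So did Kif2b, Kif28, Kif27, Kif6 and Kifc5b, while Kif12 reached it at P0 alone and Kif9 at P14 alone. A log2 intensity depends on the probes, so levels are compared between arrays and not between genes.

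Several arrays stood apart from their labels or groups. Dcx averaged 4.58 in Dcx ko/Y at E14, with 12.06 for mixed A and 12.07 for mixed B. Ywhae remained at 12.68 and 12.92 on 2 of the 3 arrays of 14-3-3 epsilon ko/ko at E14 and was 9.97 on the third. The Ndel1 signal was close to wild type in Ndel1 ko/cko at E14 (a mean of 9.82, where mixed A had 9.90 and mixed B 9.91), and it was not lower in inbred Ndel1 ko/+ at P0 or in the mixed-labelled Ndel1 ko/+ at P14. Xist, which is made from an inactive X chromosome, was high in all 3 arrays of Ndel1 ko/cko at E14 and in 1 array each of mixed B at E14, Ndel1 ko/cko at P0 and Dcx ko/Y at P0, the last against its label. At E14, 6 arrays had low hindbrain and cord genes (both of the mixed A arrays numbered 2 and 3, 2 of Lis1 ko/cko, and 1 each of Lis1 ko/+ and 14-3-3 epsilon ko/ko). In these 6 arrays the mitotic kinesins had a median 0.50 above, and the transport kinesins a median 0.19 below, the other 18. The mean of the hindbrain and cord genes was 4.33 to 4.45 in the 6 and 4.84 to 6.91 in the other 18. It was 4.01 to 4.33 at P0 and 4.30 to 4.64 at P14, so the step from E14 to P0 also crosses this difference. Its part in that step was not tested. At P0 and P14 the first principal component set mixed B, Dcx ko/Y and both Ndel1 genotypes without a background label on one side. Mixed A, the Lis1 mutants, all inbred groups and the mixed-labelled Ndel1 ko/+ lay on the other side. At P0 and P14 each mutant group not labelled inbred was therefore also compared with the mixed wild type of its own side.

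Promoters are shown because mitotic kinesins fell together with age while most transport kinesins did not. RefSeq windows of 300 bases around a gene's start (build GRCm38.p6) were matched for 33 of the 41 members. They were searched on both strands for CCAAT and for TTTGAA or TTTAAA, the letters of the cell cycle genes homology region, which do not overlap CCAAT. On the other strand these read ATTGG and TTCAAA or TTTAAA. These letters accompany many genes of the late cell cycle. TTTGAA or TTTAAA was present in 10 of 11 matched mitotic kinesins, CCAAT in 7, and both in 7. Among 10 matched transport kinesins, TTTGAA or TTTAAA was found in 1 and CCAAT in 3. Across all 32851 promoters of the table, 27.6% held TTTGAA or TTTAAA, 37.4% held CCAAT and 10.7% held both. A match is a description of these letters and no measured site. The windows of Kif11 (chr19:37376132-37376431, + strand), Kif23 (chr9:61946750-61947049, - strand), Kif22 (chr7:127042371-127042670, - strand) and Kif1a (chr1:93101825-93102124, - strand) are printed 5′ to 3′ along the gene, with both sets of letters in capitals.
Kif11: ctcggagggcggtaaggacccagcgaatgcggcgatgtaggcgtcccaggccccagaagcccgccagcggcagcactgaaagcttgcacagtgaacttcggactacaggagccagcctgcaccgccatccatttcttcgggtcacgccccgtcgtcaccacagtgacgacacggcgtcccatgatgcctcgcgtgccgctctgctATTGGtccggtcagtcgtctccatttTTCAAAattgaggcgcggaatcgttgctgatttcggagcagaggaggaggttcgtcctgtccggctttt
Kif23: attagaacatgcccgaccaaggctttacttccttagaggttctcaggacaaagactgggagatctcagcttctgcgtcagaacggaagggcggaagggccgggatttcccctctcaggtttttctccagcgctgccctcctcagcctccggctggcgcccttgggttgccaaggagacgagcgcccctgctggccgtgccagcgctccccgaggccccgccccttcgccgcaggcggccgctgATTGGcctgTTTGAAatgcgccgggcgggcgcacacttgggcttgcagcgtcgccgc
Kif22: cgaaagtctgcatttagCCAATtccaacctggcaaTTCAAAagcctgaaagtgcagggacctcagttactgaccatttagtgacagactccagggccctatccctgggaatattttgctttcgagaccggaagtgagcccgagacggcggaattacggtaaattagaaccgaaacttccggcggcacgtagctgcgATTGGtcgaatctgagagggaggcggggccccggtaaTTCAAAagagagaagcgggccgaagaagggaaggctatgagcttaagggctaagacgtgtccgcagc
Kif1a: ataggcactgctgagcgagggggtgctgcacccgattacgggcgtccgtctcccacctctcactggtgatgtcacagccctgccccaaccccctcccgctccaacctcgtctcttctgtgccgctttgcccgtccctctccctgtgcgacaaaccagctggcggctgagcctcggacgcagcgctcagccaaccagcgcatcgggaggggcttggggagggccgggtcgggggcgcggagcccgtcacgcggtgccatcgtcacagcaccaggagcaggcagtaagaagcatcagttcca
In Kif11 CCAAT lay at position -45 and TTTGAA at -19 from the start, both read on the other strand. In Kif22 the matches nearest to the start lay at -54 and -17. The printed Kif1a window held neither, and a second Kif1a window of the table held TTTGAA.

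The mitotic kinesins lost most of their signal between E14 and birth. In mixed wild types all 10 tested members were lower at P0 than at E14, by 1.65 to 3.29 log2 units. Of these, Kif18a and Kif20b reached the test level in wild types at E14 alone, so they were tested through the age where they were high. Kif14 and Kif15, under that level at each age, changed less. Fitted without the filter, Kif14 changed by -0.20 ± 0.075 and was not called, and Kif15 changed by -0.36 ± 0.082 and was called. Over the whole family 16 members fell (35% of all genes tested fell) and 6 rose (14.8% of all genes rose). The median member changed by -0.43 and the median gene by -0.19, so ages are also compared relative to the median gene. These counts come from limma with Benjamini-Hochberg adjustment over all genes, at adjusted p under 0.05 in both mixed backgrounds, and the values are differences with their standard error.

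**Figure D1:**
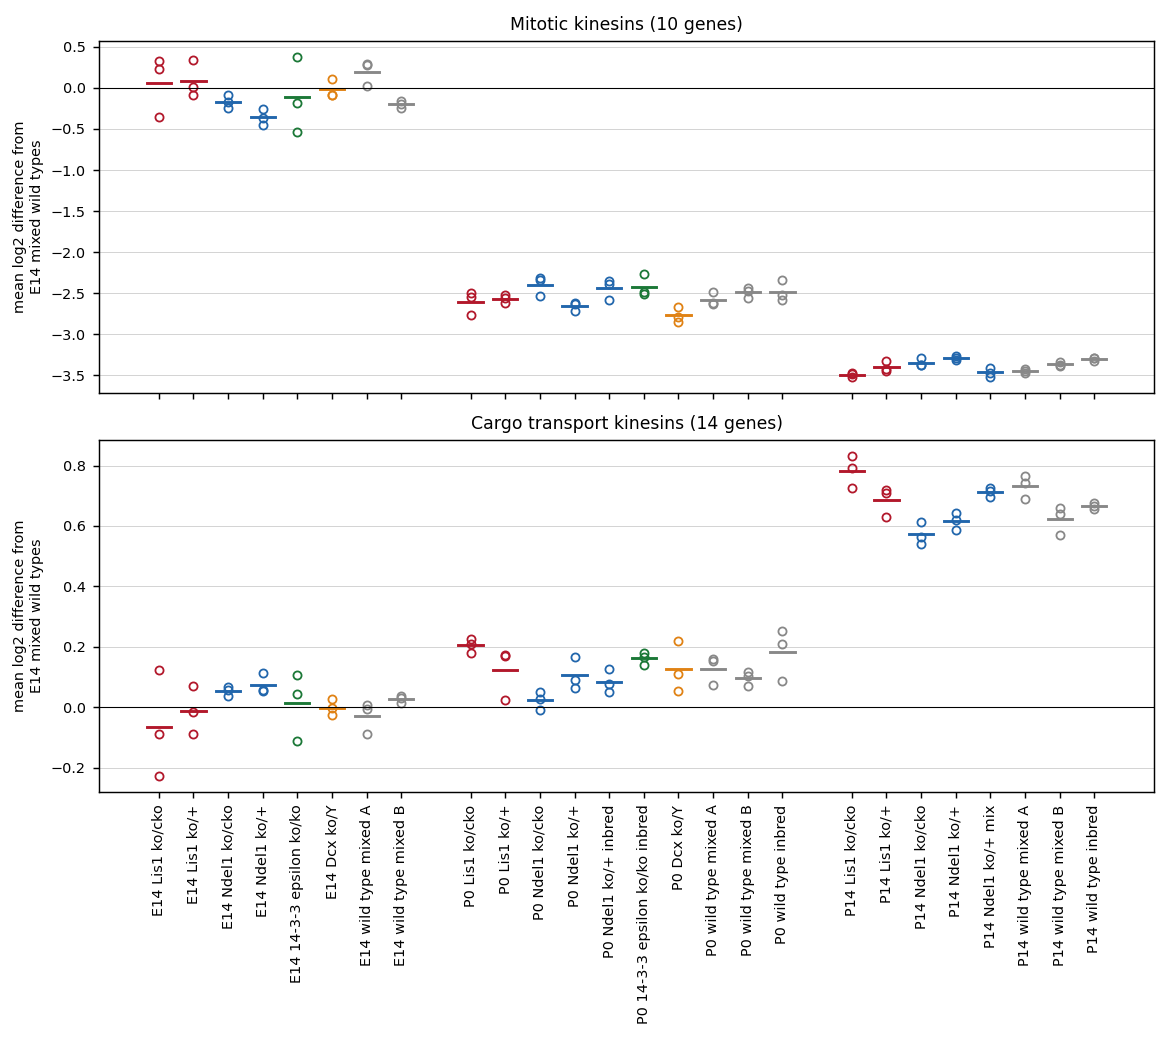
Mean log2 difference of each array from the E14 mixed wild types, over the 10 mitotic kinesins tested at some age (upper) and the 14 transport kinesins (lower), for all 26 groups, mutants left of wild types within each age. Open circles are arrays (3 a group) and bars group means; mitotic kinesins lay between -2.85 and -2.27 at P0 and between -3.52 and -3.26 at P14, where 9 of the 12 mitotic kinesins lie under the test level in every group, while transport kinesins lay between 0.54 and 0.83 at P14.

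Kif20a, which brings the chromosomal passenger complex to the spindle midzone, had a median of 8.38 at E14 (6 arrays of the mixed wild types, 8.05 to 8.90), of 5.25 at P0 (4.58 to 5.35) and of 4.02 at P14 (3.87 to 4.11). The 3 ages did not overlap. Its fall was -3.29 ± 0.15 from E14 to P0 (adjusted p = 1.2e-13) and -1.13 ± 0.15 from P0 to P14 (adjusted p = 3.16e-06). The mean of the mixed wild types at P0, 5.14, was already under the test level, so the second fall lies among dim signals.
Kif20b, a relative of Kif20a that acts in cytokinesis, had medians of 7.40 at E14 (7.16 to 7.91), 4.39 at P0 (4.26 to 4.69) and 3.53 at P14 (3.37 to 3.73). It was above the filter level at E14 alone, so its later values lie among dim signals. Its first step was -3.06 ± 0.12 (adjusted p = 3.92e-14).
Kif11, the tetrameric motor that pushes spindle poles apart, had medians of 8.78 at E14 (8.69 to 9.44), 6.16 at P0 (5.36 to 6.32) and 4.66 at P14 (4.46 to 4.96). The ages were again separate. The 2 steps were -2.90 ± 0.21 and -1.34 ± 0.21 (adjusted p = 5.39e-10 and 7.5e-06), and its 3 probe sets fell by 2.23 to 3.07 in the first of them.

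Kif2c, a centromeric depolymerase that corrects faulty attachments, fell to a median of 5.66 at P0, against 8.35 at E14. Its arrays ran from 5.51 to 5.97 at P0 and from 8.10 to 8.82 at E14, a difference of -2.74 ± 0.15.
Kif23, the motor subunit of centralspindlin, had arrays from 5.91 to 6.24 at P0 and from 8.41 to 9.13 at E14, a difference of -2.58 ± 0.15. Racgap1, its partner in that complex, fell by 1.14 on the log2 scale (SE 0.13).
Kif18a, which damps chromosome oscillations, had arrays from 4.67 to 5.30 at P0 and from 7.05 to 7.69 at E14 (-2.45 ± 0.13).
Kif4, an X-linked chromokinesin, had arrays from 5.43 to 5.92 at P0 and from 7.53 to 8.31 at E14 (-2.17 ± 0.14). None of these 4 members had arrays of P0 that overlapped those of E14.

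Kif22, a chromokinesin that pushes chromosome arms to the spindle equator, departed from the others after birth. Its arrays ran from 10.49 to 10.81 at E14, from 7.51 to 8.32 at P0 and from 7.49 to 8.32 at P14. It fell by 2.70 on the log2 scale to P0 (SE 0.14) and changed by -0.04 after birth, which did not pass the test. The value rests on a probe set whose suffix marks possible cross-hybridisation, and its other 2 probe sets were dimmer.
Kifc1, a minus-end motor of the spindle, changed by -1.65 ± 0.15 in the first step and did not pass the test in the second. Its probe set may be shared with the near-identical Kifc5b, so its level is uncertain. Kif18b, which trims astral microtubules, fell in both steps (-1.82 ± 0.14 and -0.94 ± 0.14).

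The spindle and midzone partners moved with the mitotic kinesins. From E14 to P0 all 19 tested genes of that list fell (35% of all genes fell), among them Ect2 (-3.78 ± 0.15), Bub1 (-3.63 ± 0.13), Anln (-3.10 ± 0.18) and Tpx2 (-2.83 ± 0.13). From P0 to P14, when 22.1% of all genes fell and 34.3% rose, 17 fell and 1 rose: Mki67 changed by -2.51 ± 0.17 and Tpx2 by -2.34 ± 0.13, Birc5 and Cdca8 fell by 1.88 and 1.87, whereas Anln rose by 0.56 ± 0.18. All 5 tested cycling progenitor markers fell in both steps, with median changes of -2.22 and -1.24, and 5 and then all 6 radial glia markers fell. Their part in the result was not tested.

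After birth the family split. From P0 to P14 in mixed wild types 9 members rose (34.3% of all genes rose) and 13 fell (22.1% of all genes fell), against a median gene change of 0.131. All 9 that rose were transport kinesins, and 8 of the 13 that fell were mitotic. Of those 13, Kif18a, Kif20b and Kif24 reached the test level in wild types at E14 alone, so their values at P0 and P14 lie under it. Kif11, Kif18b, Kif20a, Kif2c and Kif26b reached it in no wild type at P14, so they were tested through the earlier ages where they were higher. With quantile normalization 5 members rose in this step, and 10 instead of 6 rose from E14 to P0. The transport list counted 9 higher and 1 lower of 14, and the mitotic list 0 higher and 8 lower of 10. In inbred wild types the same step had 8 members higher (38% of all genes) and 15 lower (33.8% of all genes), with a median gene change of 0.043. There the transport list had 8 higher and 3 lower, and the mitotic list 7 lower, while with the mean of all probe sets 4 members rose.

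**Figure D2:**
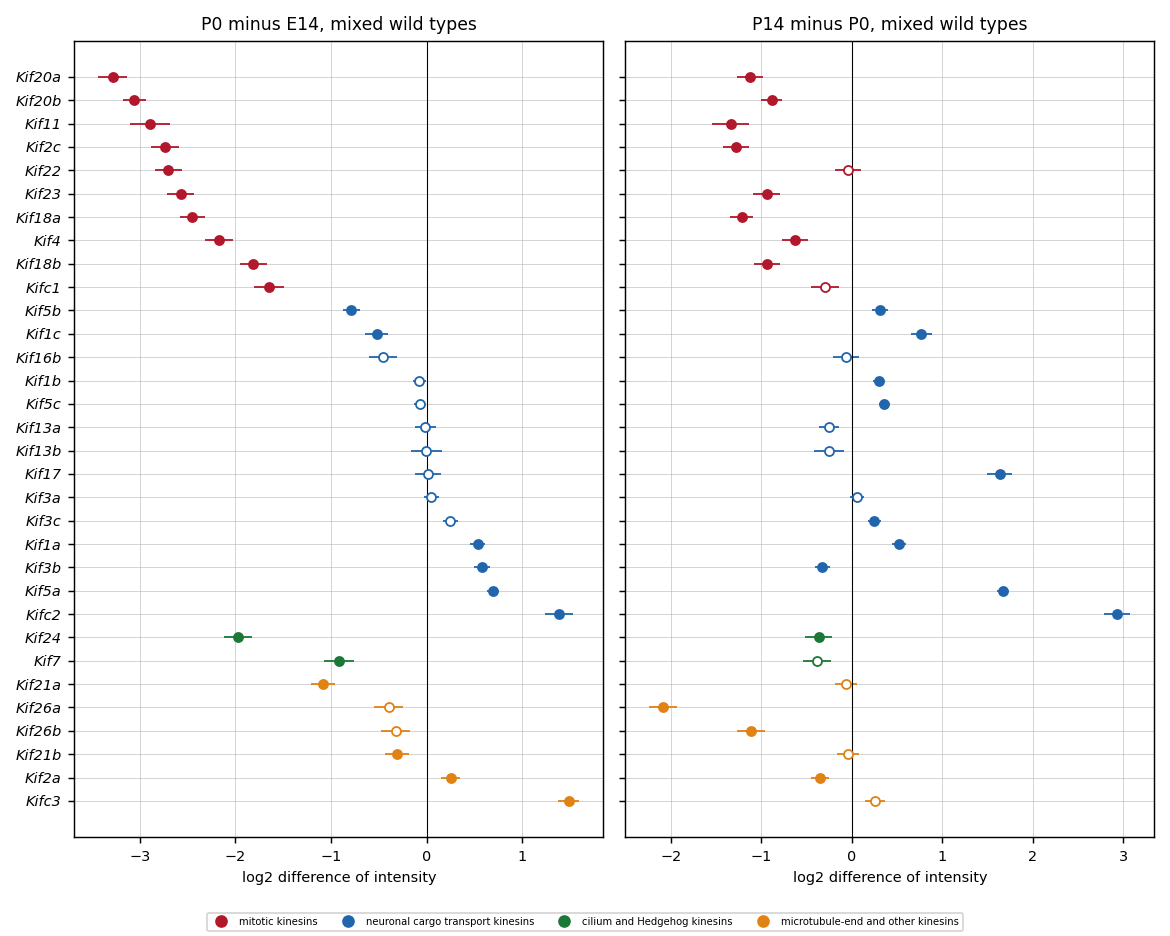
Change of each of the 32 tested kinesins between ages in mixed wild types, as log2 difference with its standard error, grouped by class and ordered by the first step. Filled points passed the test. All 10 mitotic kinesins lie at -1.65 or lower in the first step, while Kifc2 (2.93), Kif5a (1.67) and Kif17 (1.64) lie farthest to the right in the second.

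Kifc2, a minus-end motor of neurons in mouse, had the largest rise of the transport kinesins in both steps. Its medians in mixed wild types were 6.41 at E14 (6.05 to 6.58), 7.75 at P0 (7.52 to 8.03) and 10.70 at P14 (10.37 to 11.06). The 3 ages were apart, and the steps were 1.38 ± 0.15 and 2.93 ± 0.15 (adjusted p = 3.01e-07 and 1.84e-13).
Kif5a, the neuron-specific heavy chain of kinesin-1, had medians of 9.86 at E14 (9.55 to 9.93), 10.53 at P0 (10.30 to 10.64) and 12.16 at P14 (11.99 to 12.38). Again no array of one age reached another, with steps of 0.70 ± 0.065 and 1.67 ± 0.065.
Kif17, a kinesin-2 homodimer that carries NMDA receptor subunits in dendrites, showed no such early step. Its arrays ran from 5.35 to 5.74 at E14 and from 5.28 to 5.74 at P0, and then from 6.93 to 7.57 at P14. The second step was 1.64 ± 0.14 (adjusted p = 8.84e-10).

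The kinesin-1 and kinesin-3 genes differed among themselves. Kif5b, the ubiquitous kinesin-1 heavy chain, fell by 0.79 on the log2 scale to P0 (SE 0.091) and then rose by 0.31 ± 0.091. Kif5c, enriched in neurons, did not pass the test in the first step and rose by 0.36 ± 0.058 in the second, to 12.09 to 12.49 at P14, against 11.75 to 12.02 at P0. Relative to the median gene these second steps were 0.18 for Kif5b and 0.23 for Kif5c.
Kif1a, which carries synaptic vesicle precursors, rose in both steps, by 0.53 ± 0.080 and 0.52 ± 0.080. The call of the first step was lost with the mean of all probe sets (adjusted p = 0.104). That of the second was lost after quantile normalization, where the change was 0.405 (adjusted p = 0.0504). Kif1a arrays ran from 8.46 to 8.69 at E14 and from 8.87 to 9.41 at P0. At P14 they ran from 9.14 to 10.18, and mixed A and mixed B were apart. Kif1c, which carries dense core vesicles, had arrays from 7.08 to 7.43 at E14, from 6.63 to 6.92 at P0 and from 7.27 to 7.85 at P14. It fell by 0.52 on the log2 scale to P0 (SE 0.12) and rose by 0.77 ± 0.12 to P14, so P0 was lowest.
Kif1b, which carries mitochondria and vesicle precursors, rose by 0.30 ± 0.069 after birth on its brightest probe set, but its 7 probe sets ran from -1.18 to 0.30 and only 3 were positive. Probe sets of Kif5b, Kif5c and Kif3b also disagreed in sign after birth. Of 14 members called in this step that had several probe sets above the test level, 10 had all of these in 1 direction.

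Kinesin-2 had opposite early and late steps in Kif3b on its brightest probe set. Its arrays ran from 7.99 to 8.15 at E14, from 8.51 to 8.95 at P0 and from 8.27 to 8.39 at P14. It rose by 0.58 ± 0.084 and then fell by 0.33 on the log2 scale (SE 0.084, adjusted p = 0.022), and by 0.76 in inbred wild types. After birth only 2 of the 4 Kif3b probe sets were negative in mixed wild types, with changes from -0.33 to 0.07. In inbred wild types all 4 were negative. Kif3a, its partner in the heterotrimer, passed the test in neither step of the mixed wild types, and Kif3c, another partner of Kif3a, was higher by 0.25 ± 0.076 after birth. That call of Kif3c was lost in 10 of 12 runs that left out 1 array (adjusted p up to 0.117), without the filter (adjusted p = 0.0577), with the replicate block (0.06) and after quantile normalization, where the change was 0.105 (adjusted p = 0.835). Kif13a and Kif13b, which carry endosomes and other cargo, fell after birth in inbred wild types, by 0.40 and 0.36 on the log2 scale, and did not pass in mixed ones; the difference between backgrounds was not tested. Kif16b, a motor of early endosomes, passed in no step.

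Light chains and cargo adaptors moved mostly upward after birth. From P0 to P14 in mixed wild types 10 of 14 tested rose (34.3% of all genes rose) and none fell (22.1% of all genes), and in inbred wild types 8 rose (38% of all genes) and Fez1 fell (33.8% of all genes). Trak2, which links kinesin-1 to mitochondria, rose by 1.58 ± 0.14 and Clstn1 (calsyntenin-1, a cargo adaptor of kinesin-1) by 1.39 ± 0.11 in the mixed wild types. Mapk8ip3 (JIP3) rose by 1.19 ± 0.12 and Rhot2, a mitochondrial adaptor, by 0.94 ± 0.11. Between E14 and P0, when 14.8% of all genes rose and 35% fell, 4 of the 14 rose (Clstn1 by 0.91, Mapk8ip1 by 0.70, Mapk8ip2 by 0.43 and Kifap3 by 0.25) and 2 fell, which were Klc4 by 1.17 and Rhot1 by 0.35 on the log2 scale. Neuron markers moved too: after birth 5 of 8 rose and 1 fell (median 1.25), and all 5 oligodendrocyte and all 6 microglia markers rose. Their part in the result was not tested.

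The remaining members had no shared course. Kif7, which sits at ciliary tips and regulates Hedgehog signalling, and Kif24, which restrains cilium assembly at the mother centriole, both fell to P0 (-0.92 ± 0.16 and -1.97 ± 0.15). In wild types Kif24 reached the test level at E14 alone. Kifc3, a minus-end motor of cell junctions, rose by 1.49 ± 0.11 to P0, where its arrays ran from 7.06 to 7.88, against 5.76 to 6.05 at E14. Kif21a, a regulator of microtubule growth in axons, fell by 1.08 on the log2 scale in that step.
Kif26a, a kinesin without motor activity that restrains GDNF signalling in mouse, had arrays from 8.72 to 9.42 at E14, from 8.17 to 8.79 at P0 and from 6.29 to 6.65 at P14. It had the largest fall after birth, -2.09 ± 0.15 (adjusted p = 1.08e-10), and Kif26b fell by 1.11 ± 0.15. Kif2a, a depolymerase that restrains axon branch growth, rose by 0.25 and then fell by 0.35 on the log2 scale, with arrays that overlapped between ages. In the first of these steps 1 of its 4 probe sets above the test level had that sign. Kif21b fell by 0.31 to P0 on its brightest probe set, and its other probe set changed by 0.70.

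By the rule of both mixed wild types, few kinesins were called in mutants. These wild types differed from each other in 28.7% of all genes at P0 and 52.7% at P14. Some mutant groups also kept the signal of the targeted gene, as given above. Against both mixed wild types the single called member in 16 comparisons was Kif1a in Lis1 ko/cko, higher at P0 and at P14. At P0 it was 1 of 31 tested (0.331% of all genes were called) and at P14 1 of 25 (6.32% of all genes). The mean Pafah1b1 signal of Lis1 ko/cko at P0, 10.08, was under that of mixed A (10.51) but over that of mixed B (9.95). At P14 its 10.36 was under both mixed A (10.85) and mixed B (10.48). Lis1 ko/+ had less signal than Lis1 ko/cko at both ages, 10.01 and 10.21. Whether the Kif1a difference depends on the amount of Lis1 transcript was not tested.
At P0, Kif1a read 9.75, 9.84 and 9.90 in Lis1 ko/cko, against 9.41, 9.31 and 9.37 in mixed A and 8.87, 8.95 and 8.90 in mixed B. At P14 it read 10.44, 10.52 and 10.56 in Lis1 ko/cko, against 10.18, 10.08 and 10.10 in mixed A and 9.24, 9.18 and 9.14 in mixed B. All arrays of Lis1 ko/cko lay above all arrays of both wild types at each of these ages, and mixed A lay above mixed B.
The mean difference was 0.69 ± 0.095 at P0 (adjusted p = 0.0273) and 0.85 ± 0.084 at P14 (adjusted p = 0.0109), each SE being the larger of the 2. Against mixed A, the wild type of its own side, it was 0.46 at P0 (adjusted p = 0.013) and 0.39 at P14 (adjusted p = 0.00606). Against mixed B it was 0.92 and 1.32. Both Kif1a probe sets were higher, by 0.69 and 1.11 at P0 and by 0.85 and 0.96 at P14.
At E14 Kif1a read 8.55, 8.87 and 8.28 in Lis1 ko/cko, on both sides of the mixed wild types (8.46 to 8.69). In Lis1 ko/+ it read 9.63, 9.53 and 9.32 at P0 and 10.29, 10.02 and 9.92 at P14. There it was called neither against both mixed wild types nor against mixed A, but all these arrays lay above those of mixed B. The call at P0 was lost without mixed A replicate 2 or 3 or without Lis1 ko/cko replicate 2 or 3 (adjusted p up to 0.144). At P14 it was lost without Lis1 ko/cko replicate 1 or 2 (adjusted p up to 0.0829).

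**Figure D3:**
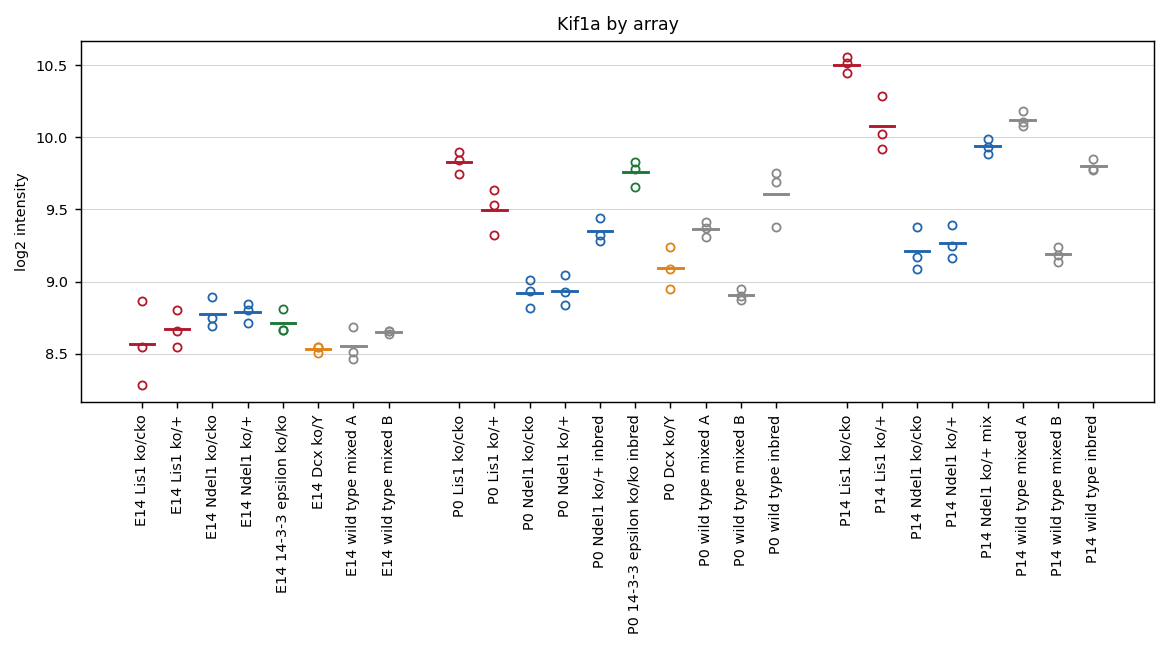
Kif1a log2 intensity on each of the 78 arrays (open circles) with group means (bars), by age and group, mutants left of wild types. Lis1 ko/cko has the highest group mean at P0 and at P14, where mixed A (10.08 to 10.18) and mixed B (9.14 to 9.24) are apart.

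Against mixed A alone at P14, 5 kinesins were called in Lis1 ko/cko (13.9% of all genes). Beside Kif1a these were Kif22 (0.48 ± 0.13), Kif3b (0.25 ± 0.081) and Kif1b (0.21 ± 0.066), which rose, and Kif21a, which fell by 0.23 on the log2 scale (SE 0.075). At P0 Kif1a was the only one (2.36% of all genes). None of 8 neuron markers was called in Lis1 ko/cko at P0 or P14, with medians of 0.05 and -0.02. At P14 4 of 5 cycling progenitor markers were lower there, as were Mki67 (-1.16 ± 0.23), Cdca8 and Top2a of the spindle partners (Mki67 and Top2a are in both lists). Of the 3 mitotic kinesins tested at that age, none was called against both mixed wild types.

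By the rule of both mixed wild types, or of the inbred wild type for inbred mutants, no kinesin was called in any other mutant by limma at adjusted p under 0.05. In Lis1 ko/+ the share of all genes called was 0% at E14, P0 and P14, and 0, 1 and 0 kinesins had an unadjusted p under 0.05. Lis1 ko/cko at E14 had 0% of genes and 0 kinesins at that unadjusted level. Ndel1 ko/+ had 0.0341% of genes called at E14, 4.05% at P0 and 0% at P14, with 1, 4 and 0 kinesins at unadjusted p under 0.05. Ndel1 ko/cko had 0%, 0.849% and 0.0895%, with 0, 2 and 4 kinesins. The mixed-labelled Ndel1 ko/+ at P14 had 0.114% and 1 kinesin. Dcx ko/Y had 0.0426% at E14 and 0.0255% at P0, with 0 and 3 kinesins, and 14-3-3 epsilon ko/ko had 0% at E14 with 0. Against inbred wild types at P0, Ndel1 ko/+ had 0.255% of genes called and 7 kinesins at unadjusted p under 0.05, and 14-3-3 epsilon ko/ko had 0.0255% and 2.
These counts do not show that levels were equal. Differences without a call included Kif16b in Lis1 ko/cko at P14 (-0.77 ± 0.19, adjusted p = 0.367), Kif22 in inbred Ndel1 ko/+ (0.56 ± 0.16, adjusted p = 0.106) and Kif20a in Dcx ko/Y at P0 (-0.57 ± 0.19).

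**Figure D4:**
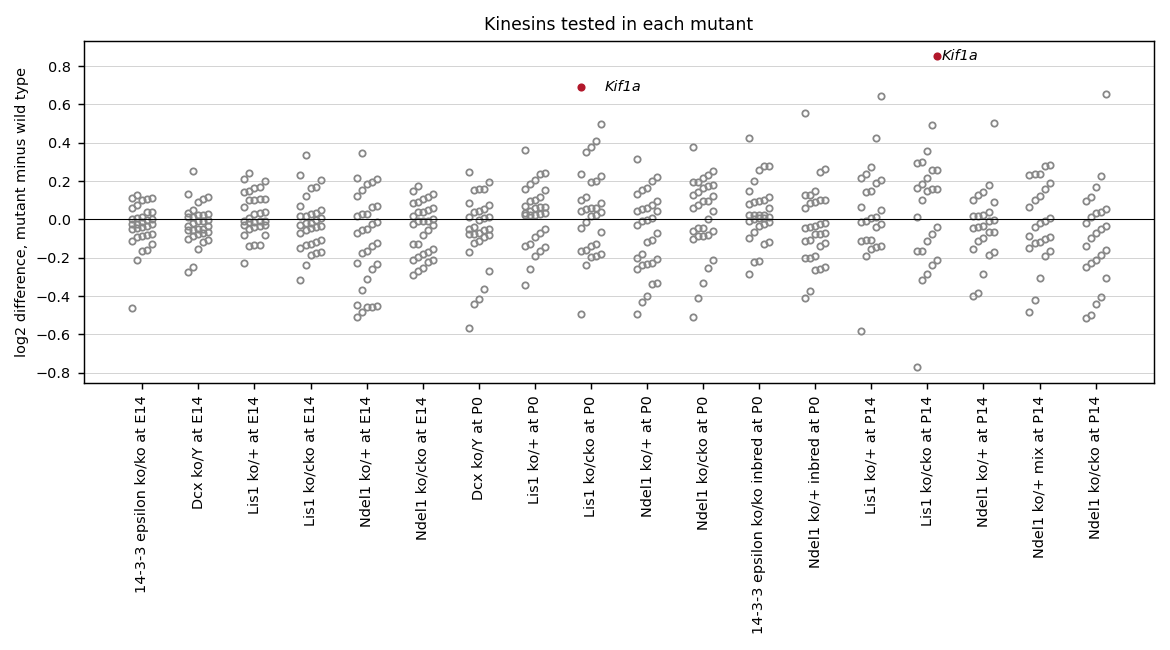
Log2 difference of each tested kinesin in each mutant from its wild types (mean of both mixed wild types, or the inbred wild type for inbred mutants); every circle is a gene and filled circles passed the test. Kif1a in Lis1 ko/cko at P0 (0.69) and P14 (0.85) is the only filled gene.

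Compared with the mixed wild type of the same side of the first component, few further kinesins were called. Ndel1 ko/+ at P0 had 2 (9.47% of all genes): Kif26a fell by 0.46 on the log2 scale and Kif5b rose by 0.30 ± 0.097. Ndel1 ko/cko at P0 had Kif3c, which rose by 0.27 ± 0.067 (3.72% of all genes). There were none in Lis1 ko/+ at P0 (0% of all genes) and P14 (0.00813%), in Dcx ko/Y at P0 (0.034%), in Ndel1 ko/+ at P14 (0%), in Ndel1 ko/cko at P14 (0.179%) or in the mixed-labelled Ndel1 ko/+ at P14 (0.968%).

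At E14 the calls in Lis1 ko/cko depended on the arrays of low hindbrain level. With all arrays none was called, and without those 6 arrays Kif5a was higher (0.38 ± 0.081) and Kifc1 lower (-0.66 ± 0.19), beside 3.53% of all genes. A single array of Lis1 ko/cko (replicate 2) and a single array of mixed A (replicate 1) remained in that fit, and each was taken to vary like the other groups.

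The ko/cko and ko/+ groups were also compared directly within each gene. The signal of the targeted gene was not lower in ko/cko than in ko/+ for Ndel1 at E14 and P0. Nor was it for Lis1 at P0 and P14. Whether the differences between ko/cko and ko/+ depend on the amount of transcript was not tested. For Ndel1 at P0, 5 of 31 kinesins differed (9.13% of all genes), 3 higher and 2 lower in ko/cko.
Kifc2 read 7.09, 7.33 and 7.38 in Ndel1 ko/cko, against 8.10, 7.99 and 7.90 in Ndel1 ko/+. The groups did not overlap, and the difference was -0.73 ± 0.17 (adjusted p = 0.00965). The wild types lay between 7.52 and 8.03, above Ndel1 ko/cko, but Kifc2 was not called against mixed B.
Kif26b read 6.51, 6.53 and 6.53 in Ndel1 ko/cko, against 5.83, 5.83 and 5.83 in Ndel1 ko/+, a difference of 0.69 ± 0.16 (adjusted p = 0.00951). Mixed wild types ran from 6.10 to 6.90 and so enclosed the ko/cko arrays, while those of ko/+ were below them. Kif26a had the same order, with 8.70, 8.79 and 8.53 in Ndel1 ko/cko, against 8.16, 8.20 and 8.16 in Ndel1 ko/+ (0.50 ± 0.15).
Kif3b was lower in Ndel1 ko/cko (8.16, 8.28 and 8.33) than in Ndel1 ko/+ (8.61, 8.55 and 8.50), by -0.30 ± 0.083. Kif3c was higher by 0.22 ± 0.067. Leaving out 1 array in turn left 1 to 4 calls: Kif26b kept its call each time, Kifc2 lost it without Ndel1 ko/cko replicate 1 (adjusted p = 0.0573), and Kif3b, Kif3c and Kif26a lost it in several runs. In this comparison 3 of 5 cycling progenitor markers and 3 of 6 radial glia markers were higher in ko/cko. Of 8 neuron markers 3 were lower and 1 higher, and 2 of 5 astrocyte markers were lower. Their part in the result was not tested.

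For Lis1 at P14, 3 of 25 kinesins differed between ko/cko and ko/+ (8.02% of all genes), all transport kinesins and all higher in ko/cko. Transport kinesins made up 14 of the 25 tested at this age. Kif1c read 8.20, 7.96 and 7.90 in Lis1 ko/cko, against 7.39, 7.59 and 7.66 in Lis1 ko/+, a difference of 0.48 ± 0.11 (adjusted p = 0.0148). With the mean of all probe sets it was 0.22 for Kif1c and did not pass (adjusted p = 0.0927).
Kif1a differed by 0.43 ± 0.084 (adjusted p = 0.0076). Kif3b read 8.63, 8.58 and 8.68 in Lis1 ko/cko, against 8.27, 8.32 and 8.39 in Lis1 ko/+ (0.30 ± 0.081, adjusted p = 0.0263). Arrays of the 2 groups did not overlap for any of the 3 genes. Without Lis1 ko/cko replicate 2 none of the 3 was called, and without replicate 1 only Kif1a was. Kif3b was also lost without Lis1 ko/+ replicate 2 or 3, and without Lis1 ko/cko replicate 3 a count of 5 was reached.
No kinesin differed between ko/cko and ko/+ in the other 4 comparisons. The shares of all genes were 0.0426% for Lis1 at E14, 0.569% for Lis1 at P0, 0.128% for Ndel1 at E14 and 0.309% for Ndel1 at P14, and 1, 5, 0 and 1 kinesins had an unadjusted p under 0.05. Without the 6 E14 arrays of low hindbrain level, which left Lis1 ko/cko with replicate 2 alone, 4 were called for Lis1 at E14: Kif5a (0.34 ± 0.070) and Kifc3 (0.58 ± 0.16) higher, Kif20a (-0.56 ± 0.16) and Kif21a (-0.25 ± 0.061) lower, beside 7.87% of all genes.

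**Figure D5:**
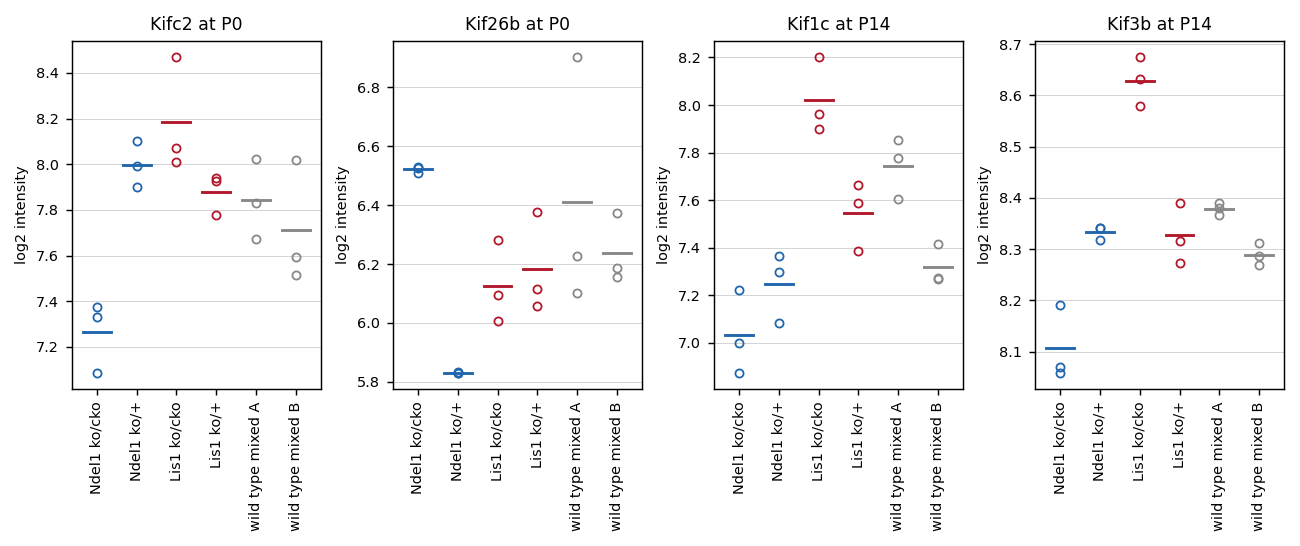
Log2 intensity of Kifc2 and Kif26b at P0 and of Kif1c and Kif3b at P14 on each array (open circles, bars are group means) in the Ndel1 and Lis1 mutants and both mixed wild types. Kifc2 is at 7.09 to 7.38 in Ndel1 ko/cko, below the other groups, and Kif3b is at 8.58 to 8.68 in Lis1 ko/cko, above them.

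The ko/cko minus ko/+ changes of Ndel1 and Lis1 were then set against each other, a test added after these values were seen. At P0 only Kifc2 differed (-1.04 ± 0.25 for Ndel1 minus Lis1, adjusted p = 0.0284, 1.92% of all genes). At P14 Kif1c (-0.69 ± 0.16, adjusted p = 0.0444) and Kif3b (-0.53 ± 0.11, adjusted p = 0.0409) differed, beside 0.545% of all genes.

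The wild types themselves differed in kinesins between backgrounds. Mixed A against mixed B had no call at E14 (0.0681% of all genes, and 5 kinesins at unadjusted p under 0.05), 9 of 31 at P0 (28.7% of all genes) and 14 of 25 at P14 (52.7% of all genes). Both later counts are near the share of all genes. Kif1a was higher in mixed A by 0.46 ± 0.095 at P0 and 0.93 ± 0.084 at P14, and Kifc3 by 0.51 ± 0.12 and 0.63 ± 0.092. Kif5a, too, was higher at both ages, by 0.25 and 0.35. Kif16b was lower in mixed A by 0.59 and 0.85, and at P14 it read 4.58, 4.63 and 4.90 in mixed A, against 5.54, 5.71 and 5.43 in mixed B. These mixed A arrays lay under the test level of 5.253, so Kif16b was tested through groups where it was higher. Kif18a was lower in mixed A at P0 by 0.55, with 4.67, 4.69 and 4.68, against 5.30, 5.19 and 5.20 in mixed B. No wild-type group of P0 reached the test level for Kif18a, so both sides are dim. Kif13b and Kif23 were higher in mixed A at P14, by 0.64 and 0.67, and none of these arrays overlapped. For Kif23 the arrays of both mixed wild types ran from 4.78 to 5.57 at P14. Mixed B lay under the test level there, so Kif23 was tested through groups where it was higher. The call of Kif23 was lost in 4 of 6 runs that left out 1 array (adjusted p up to 0.0694). Kif3a was lower in mixed A by 0.35 and 0.26, and Kif5c was lower at P14 by 0.31. At P14 Kifc2 was higher in mixed A by 0.53 ± 0.072. Probe sets of Kif22, which was lower in mixed A at P14 on its brightest one, ran from -0.52 to 0.97 in that comparison. Background and anything else that separates the 2 sides of the first component cannot be told apart.

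Whether the step from P0 to P14 differed in mutants was tested in the fit of all 78 arrays. No kinesin of 34 differed in Lis1 ko/+ (0% of all genes), Lis1 ko/cko (2.87%), Ndel1 ko/+ (0.0613%) or Ndel1 ko/cko (0.046%), and 1, 2, 2 and 1 had an unadjusted p under 0.05.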

How the data were processed

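Total RNA from mouse brain was extracted with Trizol, labelled with biotin and hybridised to 1-colour Affymetrix arrays, per the labels' protocols. The deposited values are log2 intensities, made by the authors with RMA per the submitters' processing notes; the RMA version, and which arrays were normalised together, are not given in the sources used here. Arrays have no read depth, so their number, 3 per group, limits the precision. Of the probe sets, 34958 name 1 gene, 932 several and 9211 none in the platform annotation used. Each of 18194 genes was represented by its brightest probe set and tested where a group mean reached 5.253. Here limma 3.58.1 (R 4.3.3) was fitted to each age, to the 24 wild-type arrays for development and to all 78 arrays for the difference of steps, with moderated variances that follow intensity and Benjamini-Hochberg adjustment over all genes tested (threshold 0.05). A mutant was called where it differed from mixed A and from mixed B in the same direction; the larger p, the mean change and the larger SE are given, and likewise for both backgrounds in development. Array values are given for up to 8 called members with the largest rise and 8 with the largest fall in each step of development, and up to 4 and 4 elsewhere, where arrays do not overlap; of the partner and adaptor lists up to 4 in each direction are named. Other members and uncalled values were chosen after their values were seen. The members and lists were chosen with earlier results of these data known. The tests against the wild type of the same side, and of the difference between ko/cko changes, were added after values were seen. Promoter motifs were counted by exact letters. The fits were tested on simulated data. Alternatives covered filters, probe set summaries, normalisation, single wild types, a fit of all arrays, a replicate block and leaving out each array. Same-numbered replicates of different groups had median correlations of -0.008, -0.01 and 0.012 at E14, P0 and P14, and were not taken as pairs.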

Additional observations from a re-analysis of the deposited data

Results flagged for a closer look

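Kifc2, Kif3b and Kif1c are given here because their ko/cko minus ko/+ change differed between Ndel1 and Lis1, in a test added after the values were seen. For Kifc2 at P0 the change was -0.732 in Ndel1 and 0.306 in Lis1. Its arrays read 8.47, 8.07 and 8.01 in Lis1 ko/cko, against 7.93, 7.94 and 7.78 in Lis1 ko/+. For Kif3b at P14 the change was 0.302 in Lis1 and -0.226 in Ndel1, where it read 8.07, 8.19 and 8.06 in Ndel1 ko/cko, against 8.34, 8.32 and 8.34 in Ndel1 ko/+. For Kif1c at P14 the change was -0.215 in Ndel1 and 0.477 in Lis1, and it read 7.00, 7.22 and 6.87 in Ndel1 ko/cko, against 7.37, 7.30 and 7.08 in Ndel1 ko/+. The Ndel1 change passed the test at P0 for Kifc2, and the Lis1 change at P14 for Kif3b and Kif1c; the opposite changes did not pass by themselves.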

How the results depend on the processing

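Counts of called kinesins that moved by over 1.5 times are given by setting, and the causes were not tested. With the stricter filter, Lis1 ko/cko at P14 had 2 and mixed A against mixed B at P14 had 9. With the mean of all probe sets, 4 rose from P0 to P14 in inbred wild types and Ndel1 ko/cko at P0 had 1. In that setting 5 named values changed sign: Kif1b after birth in mixed wild types (-0.318), Kif1b (-0.328), Kif5b (-0.001) and Kif5c (-0.024) in inbred wild types, and Kif22 in mixed A against mixed B at P14 (0.404). In the fit of all 78 arrays, Lis1 ko/cko at P14 had 2 and inbred Ndel1 ko/+ at P0 had 1. With quantile normalization, 10 rose from E14 to P0 and 5 from P0 to P14. Against mixed A alone, the counts at P0 were 12 and 10 in Ndel1 ko/+ and ko/cko and 10 in Dcx ko/Y. At P14 they were 5 in Lis1 ko/cko and 11 and 14 in Ndel1 ko/+ and ko/cko, and the step from P0 to P14 differed for 3, 2 and 2 in those genotypes. Against mixed B alone, the counts at P0 were 7 and 12 in Lis1 ko/+ and ko/cko, and 2 and 1 in Ndel1 ko/+ and ko/cko. At P14 they were 11 and 16 in Lis1 ko/+ and ko/cko and 13 in the mixed-labelled Ndel1 ko/+, and the step differed for 2 and 5 in Lis1 ko/+ and ko/cko. Without the 6 E14 arrays of low hindbrain level, chosen after seeing the data, Lis1 ko/cko had 2 and its comparison with ko/+ had 4. Leaving out each array in turn gave 0 to 1 for Lis1 ko/cko against ko/+ at E14, 0 to 1 for Lis1 ko/cko at P0, 0 to 1 for Ndel1 ko/+ at P0, 0 to 2 for the step in Lis1 ko/cko, 1 to 4 for Ndel1 ko/cko against ko/+ at P0, 0 to 4 for Lis1 ko/cko at P14 and 0 to 5 for Lis1 ko/cko against ko/+ at P14. Of 951 values of named kinesins over all settings, 875 kept direction and call, 71 lost the call and 5 reversed. With the replicate block, 21 kinesins were called from E14 to P0, 20 from P0 to P14 in mixed wild types, 4 in Ndel1 ko/cko against ko/+ at P0 and 3 in Lis1 ko/cko against ko/+ at P14, and no count moved by over 1.5 times. The same-numbered replicates share only a number; 6 of 24 arrays at E14, 6 of 30 at P0 and 14 of 24 at P14 correlated best with an array of their own number.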
